A study of Mus musculus with 2 samples.

Results

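The barcodes described here are cardiac endothelial barcodes that carried the transcripts of Npr3 or Vwf, from a pair of single-cell libraries of CD45-sorted mouse heart cells. They were chosen by a rule on measured values. A member had at least 300 detected genes, at most 25% of its unique molecular identifiers (UMIs) from mitochondrial genes, at least 2 UMIs summed over the endothelial genes Cdh5, Pecam1 and Egfl7, at least 2 UMIs summed over Npr3 and Vwf, and at most 20 UMIs per 10000 from the macrophage genes C1qa, C1qb and C1qc. In all, 77 barcodes met it, 33 in the TAC library and 44 in the sham library, of 15803 barcodes within the gene and mitochondrial limits and 19916 in the files. They are set against the 881 endothelial barcodes, 446 TAC and 435 sham, that met the same limits with Npr3 and Vwf both at 0. A further 54 endothelial barcodes, 31 TAC and 23 sham, had a summed count of 1 and belong to neither class.

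The study compared hearts of C57BL/6 mice, wild type and 10 weeks old, after transverse aortic constriction (TAC), an operation that narrows the aorta and loads the left ventricle with pressure, with hearts after a sham operation. Cells were sorted for CD45, the surface protein that marks leukocytes and is encoded by Ptprc, so the endothelial barcodes are those that came through a sort for another class of cells. Each group is 1 library from pooled mice, with 6 mice per group in the series' description. With 1 library per group no test can be made and the library cannot be told apart from the operation. All values below are therefore descriptions of these libraries, and their intervals cover counting error only.

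Npr3 encodes the natriuretic peptide clearance receptor, which removes natriuretic peptides from the blood, and in the adult mouse heart its transcript is known as a marker of the endocardium, the endothelial lining of the chambers. Vwf encodes von Willebrand factor, a glycoprotein that tethers platelets to damaged vessel walls. Endothelial cells store it in Weibel-Palade bodies beside P-selectin, and its transcript is known to be abundant in the endocardium, in veins and in larger vessels and low in most capillaries. Platelets and their precursors, the megakaryocytes, also make Vwf and Pecam1. On GRCm38, by the GENCODE vM21 annotation, both are protein-coding genes, Npr3 at chr15:11839896-11907287, minus strand, and Vwf at chr6:125546774-125686679, plus strand.

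The TAC library held 7975 barcodes and 97983083 UMIs and the sham library 11941 barcodes and 87532984 UMIs. Members had median depths of 7819 UMIs in TAC and 5328.5 in sham, with 309602 and 270045 UMIs in all. Their median mitochondrial share was 5.52% in TAC members, against 11.6% in sham members. The barcodes with neither gene gave 5.59% in TAC and 14.4% in sham, so the mitochondrial gap is common to both classes, and its part in the results was not tested. Of all barcodes, 35 occurred in both libraries. No barcode was a member in both, but 1 sham member shares its barcode with a TAC barcode outside the rule. Doublets were not removed.

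Cdh5, the vascular cadherin, was detected in 29 of 33 TAC members and 42 of 44 sham members. Ptprc was detected in 5 of 33 TAC members and 2 of 44 sham members. Among the barcodes with neither gene it was detected in 87 of 446 in TAC and 24 of 435 in sham. The 17 pan-endothelial genes outside the rule were counted in members of both libraries and summed to 7868 UMIs per 1000000 of the members' total (CPM) in TAC and 8880 CPM in sham. At the edge of the rule, 8 TAC and 8 sham members had exactly 2 UMIs of Npr3 and Vwf. The highest C1q level inside the rule was 16.5 per 10000 in TAC and 5.17 in sham. The lowest level among barcodes that met the rest of the rule but exceeded the C1q limit was 41.0 in TAC, over 14 barcodes, and 52.5 in sham, over 7 barcodes.

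Members made up 0.495% of TAC barcodes within the limits (exact Clopper-Pearson 95% interval 0.341% to 0.694%), against 0.482% of sham barcodes (0.350% to 0.646%). The ratio of TAC to sham was 1.03 (95% interval 0.634 to 1.65), so no difference in share was detectable at these counts. Of all endothelial barcodes, members were 6.47% in TAC and 8.76% in sham, a ratio of 0.738 (0.455 to 1.19). The barcodes with neither gene were 6.69% of TAC and 4.76% of sham barcodes within the limits, a ratio of 1.40 (1.23 to 1.61). All these shares are set by what the CD45 sort let through and are not shares of the heart's cells.

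The members of the libraries differed in make-up. Per barcode, Vwf ran from 0 to 47 UMIs with a median of 6 in TAC members, and from 2 to 30 with a median of 7.5 in sham members. Its summed level was 1282 CPM in TAC members, against 1511 CPM in sham members. Npr3 was counted in 3 of 33 TAC members (9.09%, exact 95% interval 1.92% to 24.3%), with at most 5 UMIs, and in 17 of 44 sham members (38.6%, 24.4% to 54.5%), with up to 40. Its summed level was 35.5 CPM in TAC members, against 552 CPM in sham members. Every Npr3-positive sham member and 2 of the 3 in TAC also carried Vwf, so nearly all members carried Vwf and the Npr3-positive share was larger in the sham library. Since both genes chose the members, these values are descriptions. After each barcode was thinned to 1000 UMIs, Vwf was detected in 66.7% (97.0% before thinning) of TAC members and 77.3% (100% before thinning) of sham members. In T cell barcodes, which should lack it, the shares were 1.23% (13.1% before thinning) in TAC and 0.402% (8.43% before thinning) in sham, at median depths of 20756 and 13698 UMIs.

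**Figure D1:**
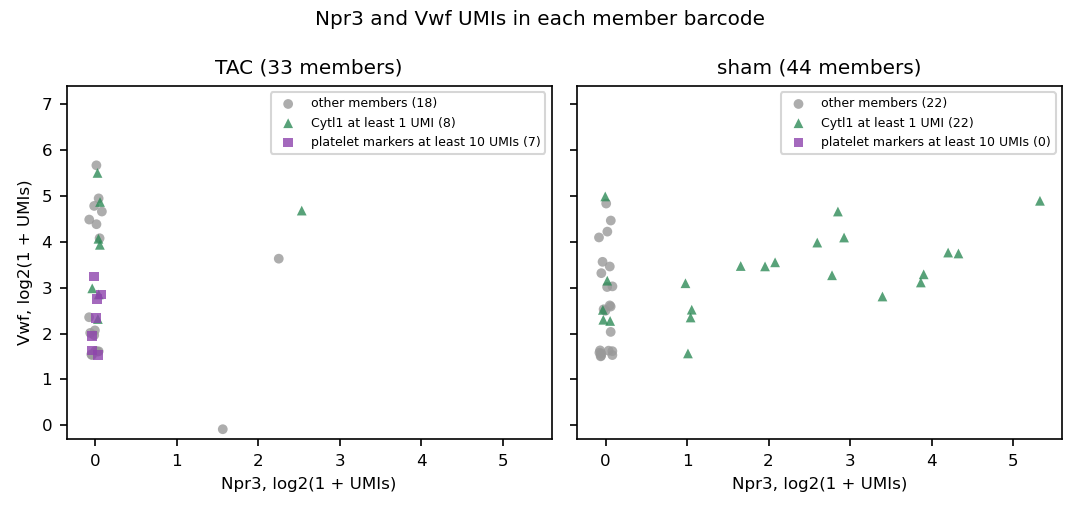
Npr3 (x axis) against Vwf (y axis), both as log2(1 + UMIs) with slight jitter, for each of the 33 TAC and 44 sham members. Triangles are members with a Cytl1 UMI and squares are members with at least 10 UMIs of platelet markers. The squares, 7 of 33, occur in the TAC panel alone, and Npr3 above 0 is seen in 3 TAC and 17 sham members.

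Cytl1, a secreted cytokine-like protein whose transcript is known from the mouse endocardium, was not in the rule and was counted in every Npr3-positive sham member. It lies at chr5:37735519-37739820, plus strand. Cytl1 had 439 CPM in TAC members (8 of 33 barcodes), against 1618 CPM in sham members (22 of 44). Those with neither gene held 0 CPM in TAC and 2.93 CPM in sham. In the thinned barcodes Cytl1 was detected in 15.2% (24.2% before thinning) of TAC members and 40.9% (50% before thinning) of sham members, against 1.14% (3.02% before thinning) of TAC and 0.671% (2.67% before thinning) of sham fibroblast barcodes, at median depths of 14973 and 8213 UMIs. All 17 Npr3-positive sham members carried it, while 5 of the 27 sham members with Npr3 at 0 did. In TAC, 1 of 3 Npr3-positive and 7 of 30 Npr3-0 members carried it.

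Within the sham library, the Npr3-positive members stood apart from the other members in more than Cytl1. Dcn, the matrix proteoglycan decorin, had 2761 CPM in the Npr3-positive sham members, against 253 CPM in those with Npr3 at 0. Cgnl1, a junction-associated protein, had 856 CPM in the Npr3-positive sham members, against 157 CPM in those with Npr3 at 0. The capillary lipid gene Gpihbp1, whose product anchors lipoprotein lipase to the capillary wall, ran the other way, with 121 CPM in the Npr3-positive sham members, against 794 CPM in those with Npr3 at 0. Fabp4, a fatty-acid-binding protein, had 5755 CPM in the Npr3-positive sham members, against 17419 CPM in those with Npr3 at 0. Selp, which encodes P-selectin, had 32.3 CPM in the Npr3-positive sham members, against 130.0 CPM in those with Npr3 at 0. Of the 4 endocardial-list genes outside the rule with at least 20 UMIs in sham members, 3 were past 2-fold higher in the Npr3-positive members and 0 lower, where 7.70% of 2038 genes were past 2-fold higher. Of 13 capillary genes, 8 were past 2-fold lower and 1, Fabp5, higher, where 8.83% of genes were past 2-fold lower. The capillary gene Kdr did not follow, with 291 CPM in the Npr3-positive sham members, against 308 CPM in those with Npr3 at 0, nor did Aplnr, with 137 CPM in the Npr3-positive sham members, against 103 CPM in those with Npr3 at 0. The Aplnr UMIs of the Npr3-positive members were all in 1 barcode. Plvap, of the endocardial list, fell short of 2-fold. It had 436 CPM in the Npr3-positive sham members, against 219 CPM in those with Npr3 at 0. Adgrg6, of the same list, had fewer than 20 UMIs in sham members and was not counted. Its level was 64.6 CPM in the Npr3-positive sham members, against 68.4 CPM in those with Npr3 at 0. Npr3 itself made the split, so no test is given.

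Of the 8 endocardial-list genes outside the rule, 5 had at least 20 UMIs over both libraries, and 0 of these were past 2-fold higher and 4 past 2-fold lower in TAC members, where 8.01% of all genes counted were past 2-fold lower. The list had a median log2 ratio of TAC over sham of -1.74, against -0.01 over all genes counted. Tmem108 had 19.4 CPM in TAC members (2 of 33 barcodes), against 156 CPM in sham members (10 of 44). Cytl1 was 3.68-fold lower (95% interval 3.03 to 4.50) in TAC members. The highest ratios of the list were those of Plvap, the diaphragm protein of fenestrated and venous endothelium, with 255 CPM in TAC members, against 318 CPM in sham members, and of Adgrg6, an adhesion receptor, with 19.4 CPM in TAC members, against 66.7 CPM in sham members. Hapln1 was at 0 in members of both libraries. Within the 18 TAC and 24 sham members with Npr3 at 0 and no platelet UMI the median was -0.077, and with platelet-UMI barcodes alone left out it was -1.38. Fewer Npr3-positive barcodes and less RNA per barcode cannot be told apart in the sums.

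Members were next set against the endothelial barcodes with neither gene. Of 8094 genes with at least 20 UMIs over members and others in each library, 217 (2.68%) were past 2-fold higher in members in both libraries and 255 (3.15%) were past 2-fold lower in both. The 10 genes with the highest ratios, taken by the smaller of their ratios in the libraries, were Cytl1, Selp, Ahsg, Cpe, Plvap, Bmx, Clu, Ptgs1, Eln and Lbp. Selp had 213 CPM in TAC members and 85.2 CPM in sham members, against 2.19 and 0.488 CPM in the TAC and sham barcodes with neither gene. Plvap had 255 CPM in TAC members and 318 CPM in sham members, against 11.2 and 0 CPM in the TAC and sham barcodes with neither gene. Against a floor of 3 UMIs over the class, Cytl1 was at least 535-fold higher in TAC members and Plvap at least 217-fold higher in sham members than in the barcodes with neither gene. Selp was detected in 12 of 33 TAC and 6 of 44 sham members.

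The other genes of that set include secreted and vessel-wall products. Clu, the extracellular chaperone clusterin, had 937 CPM in TAC members and 599.9 CPM in sham members, against 43.2 and 35.1 CPM in the TAC and sham barcodes with neither gene, and its excess was 21.7-fold (95% interval 17.8 to 26.5) in TAC and 17.1-fold (95% interval 12.9 to 22.9) in sham. Cpe, the prohormone-processing carboxypeptidase E, had 265 CPM in TAC members and 670.3 CPM in sham members, against 9.85 and 11.2 CPM in the TAC and sham barcodes with neither gene. Eln, which encodes elastin of large-vessel walls, had 313 CPM in TAC members and 322 CPM in sham members, against 21.3 and 16.6 CPM in the TAC and sham barcodes with neither gene. Ptgs1, the constitutive cyclooxygenase that feeds prostacyclin synthesis, had 187 CPM in TAC members and 233 CPM in sham members, against 12.3 and 15.6 CPM in the TAC and sham barcodes with neither gene. Bmx, a tyrosine kinase known from arterial endothelium and endocardium, had 87.2 CPM in TAC members and 163 CPM in sham members, against 4.10 and 4.88 CPM in the TAC and sham barcodes with neither gene. Lbp, the lipopolysaccharide-binding protein, had 203 CPM in TAC members and 81.5 CPM in sham members, against 14.2 and 2.44 CPM in the TAC and sham barcodes with neither gene. Ahsg, which encodes the plasma protein fetuin-A, rested on few barcodes, with UMIs in 2 TAC and 10 sham members, and all 28 of its sham UMIs were in Npr3-positive members. In TAC, 1 barcode held 17 of its 22 UMIs. All of these genes were more than 10-fold higher in members than in the barcodes with neither gene, in both libraries.

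**Figure D2:**
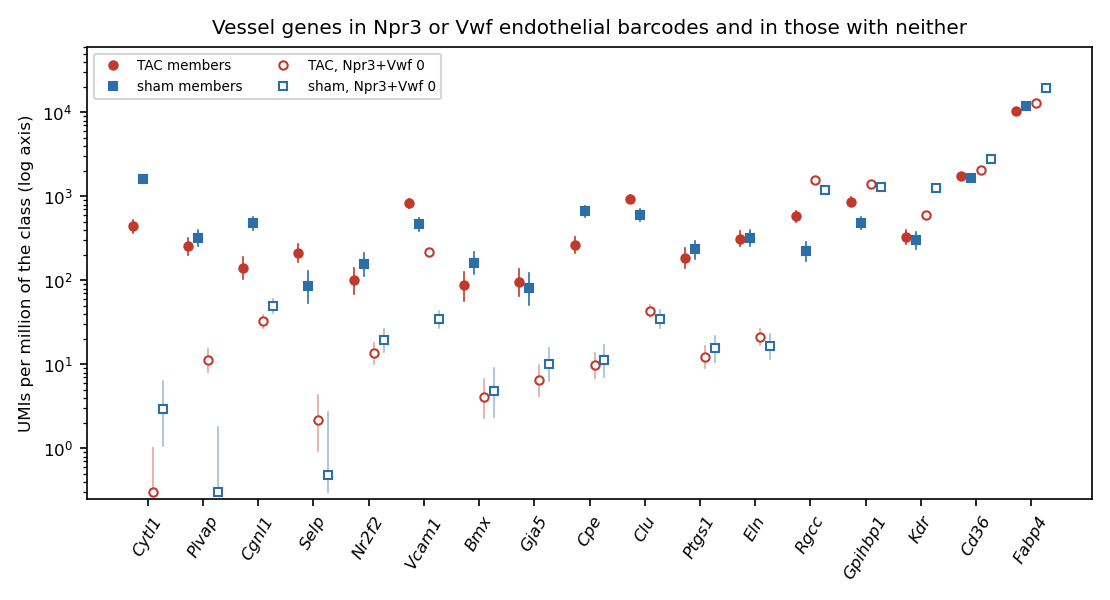
UMIs per 1000000 of the class total (log axis) for 17 vessel genes in TAC members, sham members, and the TAC and sham endothelial barcodes with Npr3 and Vwf at 0. Bars are exact Poisson 95% intervals of the summed UMIs (counting error only), and a sum of 0 is drawn near the bottom edge. Genes from Cytl1 to Eln lie higher in members in both libraries, while Rgcc, Gpihbp1 and Kdr lie lower.

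Venous genes were higher in members. Of the 9 venous genes outside the rule, 8 of 9 counted in TAC and 4 of 6 counted in sham were past 2-fold higher in members, and 0 were past 2-fold lower. Of all genes counted, 8.39% in TAC and 9.08% in sham were past 2-fold higher in members, and 14.8% in TAC and 10.4% in sham past 2-fold lower. The list's median log2 ratio was 2.78 in TAC and 3.37 in sham, against -0.06 and 0.05 over all genes counted. Nr2f2, the transcription factor that specifies venous identity, had 100.1 CPM in TAC members and 156 CPM in sham members, against 13.7 and 19.5 CPM in the TAC and sham barcodes with neither gene. Ackr1, the atypical chemokine receptor of venules, was counted in 6 TAC and 1 sham members and was at 0 in the 881 barcodes with neither gene. The smallest excess in TAC was that of Icam1, the leukocyte adhesion molecule, at 1.93-fold (95% interval 1.47 to 2.49).

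Arterial genes were mixed, with 7 higher and 3 lower past 2-fold of 13 in TAC members, and 5 higher and 2 lower of 13 in sham members. Over all genes counted, 8.39% were past 2-fold higher and 14.8% lower in TAC, and 9.08% and 10.4% in sham. The gap junction gene Gja5 had 96.9 CPM in TAC members and 81.5 CPM in sham members, against 6.56 and 10.3 CPM in the TAC and sham barcodes with neither gene. Fbln5, an elastic fibre protein, had 239 CPM in TAC members and 167 CPM in sham members, against 42.9 and 50.3 CPM in the TAC and sham barcodes with neither gene. Cxcl12, a chemokine of arterial and capillary endothelium, ran lower, with 323 CPM in TAC members and 544 CPM in sham members, against 662 and 1748 CPM in the TAC and sham barcodes with neither gene, as did Unc5b, a guidance receptor, at 2.75-fold lower (95% interval 1.05 to 10.3) in TAC and 3.71-fold lower (95% interval 1.67 to 10.3) in sham. Gja5 in sham was high in members with Npr3 at 0, at 130.0 CPM, and low in Npr3-positive members, at 24.2 CPM.

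Part of the capillary list was lower in members. In TAC, 4 of 15 were past 2-fold lower and 0 higher, with a median log2 ratio of -0.68. In sham, 8 of 15 were past 2-fold lower and 0 higher, with a median of -1.29. Of all genes counted, 14.8% in TAC and 10.4% in sham were past 2-fold lower in members. Rgcc, a cell-cycle regulator known from cardiac capillaries, had 581 CPM in TAC members and 222 CPM in sham members, against 1577 and 1207 CPM in the TAC and sham barcodes with neither gene. Car4, the membrane-bound carbonic anhydrase of capillaries, had 77.5 CPM in TAC members and 40.7 CPM in sham members, against 163 and 153 CPM in the TAC and sham barcodes with neither gene. Kdr, the main receptor for vascular endothelial growth factor, had 329 CPM in TAC members and 299.9 CPM in sham members, against 599.5 and 1273 CPM in the TAC and sham barcodes with neither gene. The list's summed level per barcode was 4.03, 104 and 657 UMIs per 10000 (lowest, median and highest) in TAC members and 5.08, 183 and 569 in sham members. In the barcodes with neither gene the medians were 357 in TAC and 349 in sham, and members and others overlapped. With at least 3 UMIs of Npr3 and Vwf asked for in place of 2, the TAC median was -1.62.

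Genes of the Weibel-Palade body and of haemostasis were higher on balance, with 6 higher and 2 lower past 2-fold of 18 in TAC, and 7 and 1 of 14 in sham. The shares over all genes counted were 8.39% higher and 14.8% lower in TAC, and 9.08% and 10.4% in sham. Edn1, the vasoconstrictor peptide endothelin-1, which is stored with von Willebrand factor, had 116 CPM in TAC members and 174 CPM in sham members, against 15.6 and 26.4 CPM in the TAC and sham barcodes with neither gene. Entpd1, the ectonucleotidase CD39 that breaks down ATP and ADP, had 203 CPM in TAC members and 226 CPM in sham members, against 65.9 and 31.2 CPM in the TAC and sham barcodes with neither gene. Igfbp7, an insulin-like growth factor binding protein, was lower, with 824 CPM in TAC members and 878 CPM in sham members, against 2111 and 1656 CPM in the TAC and sham barcodes with neither gene. Among matrix genes, Mgp, an inhibitor of calcification, had 7161 CPM in TAC members and 5036 CPM in sham members, against 1183 and 175 CPM in the TAC and sham barcodes with neither gene, and Fn1, which encodes fibronectin, had 294 CPM in TAC members and 274 CPM in sham members, against 46.8 and 55.2 CPM in the TAC and sham barcodes with neither gene. The natriuretic peptide receptor gene Npr1, which encodes the signalling receptor that Npr3 competes with for ligand, had 54.9 CPM in TAC members and 88.9 CPM in sham members, against 23.5 and 57.1 CPM in the TAC and sham barcodes with neither gene. Nppc and Corin were at 0 in members of both libraries.

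The genes lowest in members were mostly leukocyte genes. The rule named Fxyd2, Cd52, Lgals3, Napsa, Ms4a6c, Itga4, Selplg, Bcl2a1b, Cytip and Jam3. Cd52, a lymphocyte and monocyte surface glycoprotein, had 84.0 CPM in TAC members and 3.70 CPM in sham members, against 754 and 102 CPM in the TAC and sham barcodes with neither gene. Of the 9 common leukocyte genes, 8 in TAC and 8 in sham were past 2-fold lower in members, against 14.8% and 10.4% of all genes counted. Their summed level was 746 CPM in TAC members, against 2419.7 CPM in TAC barcodes with neither gene, and 133 CPM in sham members, against 357 CPM in sham barcodes with neither gene. Some of these gaps were smaller or turned once Ptprc-positive barcodes were left out. Cd52 had 26 UMIs in TAC members and 2755 in TAC barcodes with neither gene, and without those barcodes it had 12 in the remaining 28 members and 113 in the remaining 359 others. In those TAC barcodes Bcl2a1b had 3 UMIs in members and 24 in others, and Ms4a6c had 6 in members and 33 in others. Bcl2a1b, Cytip and Napsa had 0 UMIs in sham members, and without Ptprc-positive barcodes they had at most 2 UMIs in the sham barcodes with neither gene, so no direction can be read for them there. Jam3, a junctional adhesion molecule, had 6.46 CPM in TAC members and 14.8 CPM in sham members, against 47.0 and 91.8 CPM in the TAC and sham barcodes with neither gene, and Fxyd2, a regulator of the sodium pump, was at 0 in all members. Among the barcodes with neither gene, 1 barcode held 239 of 419 Fxyd2 UMIs in TAC and 1 held 95 of 109 in sham, so 1 barcode gave most of its UMIs in each library. Neutrophil-list genes summed to 3353 CPM in TAC members, against 5488 CPM in TAC barcodes with neither gene, and to 133 CPM in sham members, against 49.3 CPM in sham barcodes with neither gene. Macrophage-list genes summed to 5917 CPM in TAC members, against 5614 CPM in TAC barcodes with neither gene, and to 3773 CPM in sham members, against 1705 CPM in sham barcodes with neither gene. That list holds Pf4, which platelets also make and which gave 1035 of its 1832 UMIs in TAC members, and Apoe, which gave 896 of its 1019 UMIs in sham members. The part of this leukocyte RNA in the other differences between the classes was not tested. Cell cycle genes were also lower in TAC members, with 13 of 18 past 2-fold lower and 0 higher, and in sham 3 lower and 1 higher of 8.

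Between the libraries, 4072 genes had at least 20 UMIs over the members of both. Of these, 414 (10.2%) were past 2-fold higher in TAC members and 326 (8.01%) were past 2-fold lower, and the median log2 ratio was -0.01. The list counts of TAC over sham in members below are to be read beside these shares. In the barcodes with neither gene, 1216 (11.6%) of 10471 were past 2-fold higher in TAC and 635 (6.06%) were past 2-fold lower, with a median of 0.04. The genes with the highest ratios in members were Nrgn, Ppbp, Clec1b, Treml1, Pf4, Serpina3n, Gp9, Irf7, Fermt3 and Alox5ap. The genes with the lowest were Lum, Dcn, Bmp6, Apoe, Id2, Fabp5, Hspa1b, Hspa1a, Mal and Stab1.

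Most of the highest ratios were those of platelet genes and came from few barcodes. All 7 platelet-list genes with at least 20 UMIs were past 2-fold higher in TAC members. The list summed to 2749 CPM in TAC members, against 22.2 CPM in sham members, and to 56.9 and 66.9 CPM in the TAC and sham barcodes with neither gene. It was above 0 in 12 of 33 TAC members, with up to 224 UMIs in a barcode, and in 5 of 44 sham members, with at most 2. Ppbp, a platelet chemokine, had 249 UMIs in 7 TAC members and 0 in sham members, at least 72.4-fold higher if sham members are put at a floor of 3 UMIs over the class. Nrgn, a calmodulin-binding protein present in platelets, had 449 UMIs in 8 TAC members and 0 in sham members. Pf4, platelet factor 4, had 3343 CPM in TAC members (11 of 33 barcodes), against 22.2 CPM in sham members (5 of 44).

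In the 7 TAC members with at least 10 platelet-list UMIs, Cdh5 was detected in 3, Vwf in 7 with 31 UMIs in all, Cytl1 in 0 and Fabp4 in 7. Of these 7, 5 had 59 to 224 platelet-list UMIs with 4 to 9 pan-endothelial UMIs and at most 1 Cdh5 UMI, while the others had 114 and 146 pan-endothelial UMIs. These pan-endothelial sums include Cdh5, Pecam1 and Egfl7. Since platelets and megakaryocytes also carry Vwf and Pecam1, the data go against the endothelial label for those 5 TAC members. Without the barcodes that held a platelet UMI, Pf4 gave a log2 ratio of -0.38 in place of 7.12. Pf4 had 6 UMIs in sham members before that filter, so no direction can be read from the lower value. The other platelet genes among the highest were at 0 in both libraries, which for genes of the platelet list was fixed by the filter. Fermt3, an integrin activator of blood cells, had 1 UMI in sham members. Without all barcodes mixed with platelet, leukocyte, neutrophil or mural RNA it gave -1.16, which shows the 0.5 UMI added and no direction. Serpina3n, an acute-phase protease inhibitor, kept a log2 ratio of 5.71 there, with 54 UMIs in 10 TAC members and 0 in sham members overall. Alox5ap, a leukotriene synthesis protein, gave 2.30. Of the 16 neutrophil-list genes, 5 had at least 20 UMIs and 4 of these were past 2-fold higher in TAC members, but 1 TAC barcode held 277 of the 305 S100a8 UMIs. Likewise 1 sham barcode held 192 of the 195 UMIs of the pericyte gene Rgs5, and Acta2 and Tagln, the other mural-list genes past 2-fold lower in TAC members, were each counted in 1 sham member. Red cell genes summed to 114 UMIs (368 CPM) in TAC members and 19 (70.4 CPM) in sham members. In the barcodes with neither gene they summed to 5649 CPM in TAC and 24508 CPM in sham. The part of this red cell RNA in the differences between the classes was not tested.

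Several of the genes with the lowest TAC ratios were also higher in the Npr3-positive than in the other sham members. Dcn had 178 CPM in TAC members (7 of 33 barcodes), against 1403 CPM in sham members (17 of 44). Lum, the matrix proteoglycan lumican, had 3.23 CPM in TAC members (1 of 33 barcodes), against 289 CPM in sham members (10 of 44). Bmp6, a bone morphogenetic protein, had 38.8 CPM in TAC members (7 of 33 barcodes), against 222 CPM in sham members (21 of 44), and 347 CPM in the Npr3-positive sham members, against 116 CPM in those with Npr3 at 0. Fabp5, a fatty-acid-binding protein, had 429.6 CPM in TAC members (25 of 33 barcodes), against 1896 CPM in sham members (37 of 44), and 3205 CPM in the Npr3-positive sham members, against 787 CPM in those with Npr3 at 0. Id2, a transcriptional inhibitor, had 61.4 CPM in TAC members (9 of 33 barcodes), against 289 CPM in sham members (22 of 44). Stab1, a scavenger receptor of sinusoidal endothelium and macrophages, had 54.9 CPM in TAC members (8 of 33 barcodes), against 222 CPM in sham members (27 of 44), and Mal, a membrane-sorting protein, had 45.2 CPM in TAC members (8 of 33 barcodes), against 193 CPM in sham members (13 of 44). Of the 14 fibroblast-list genes, which include Dcn and Lum, Pdgfra and Tcf21 were at 0 in members of both libraries and Col1a1 had 3 UMIs in TAC and 1 in sham members. The list summed to 465 CPM in TAC members and 2026 CPM in sham members. In the barcodes with neither gene it summed to 1297 CPM in TAC and 836 CPM in sham. Of its 6 genes counted, 1 was past 2-fold higher and 3 lower in TAC members, where 10.2% and 8.01% of all genes counted were. The part of fibroblast RNA in these ratios was not tested. Dcn, Lum, Bmp6, Fabp5, Id2, Stab1 and Mal were all higher in the Npr3-positive than in the Npr3-0 sham members, by 2.19-fold for Stab1 to 11.1-fold for Mal.

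Among members with Npr3 at 0 and no platelet UMI the log2 ratio of Dcn was -1.14 in place of -2.97. That of Bmp6 was -1.08 in place of -2.47, and that of Mal 0.60 in place of -2.05. Apoe, which carries lipid between cells, had 669 CPM in TAC members, against 3318 CPM in sham members. The sham barcodes with neither gene held 678 CPM, and within the sham members Apoe had 5772 CPM in the Npr3-positive sham members, against 1238 CPM in those with Npr3 at 0. Its thinned share was 42.4% in TAC members and 72.7% in sham members, 75.8% in TAC and 89.6% in sham T cell barcodes, and 56.1% in TAC and 77.9% in sham fibroblast barcodes. The part of free RNA in the members' Apoe counts was not tested. Before thinning it was 81.8% in TAC members and 97.7% in sham members.

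Interferon-stimulated genes were higher in TAC members as a group. These genes are switched on when interferon receptors activate STAT transcription factors, and their products act against viruses and intracellular microbes. Of 33 list genes, 29 had at least 20 UMIs, and 26 of these were past 2-fold higher in TAC members with 0 past 2-fold lower, a median log2 ratio of 2.48. In the barcodes with neither gene, 30 of 32 were past 2-fold higher and 0 lower, with a median of 2.34. The difference between the classes was not tested. Summed over the list, each TAC member held 17.5, 153 and 398 UMIs per 10000 (lowest, median and highest), against 4.36, 29.4 and 172 in sham members. The ranges overlapped, with 16 of 33 TAC members above the highest sham member and 4 below the sham median. Those 4 include the TAC members with 59, 200 and 224 platelet-list UMIs, for which the endothelial label is in doubt. These held 20.3, 21.9 and 19.1 UMIs per 10000 of the interferon list. The remaining member, at 17.5 the lowest in TAC, held 45 Vwf UMIs and 0 platelet-list UMIs, with a mitochondrial share of 20.8%.

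The highest ratio in the list was that of Irf7, the interferon-induced transcription factor, with 313 CPM in TAC members (20 of 33 barcodes), against 3.70 CPM in sham members (1 of 44). Irf7 was detected after thinning in 21.2% of TAC members and in 0 of 44 sham members, which allows a share of up to 6.82%. Zbp1, a sensor of Z-form nucleic acid, had 223 CPM in TAC members (23 of 33 barcodes), against 3.70 CPM in sham members (1 of 44). Gbp2, a guanylate-binding protein that coats intracellular pathogens, had 1521 CPM in TAC members (26 of 33 barcodes), against 107 CPM in sham members (18 of 44), 14.2-fold (95% interval 9.73 to 21.4) higher in TAC. Its thinned share was 54.5% (78.8% before thinning) in TAC members and 13.6% (40.9% before thinning) in sham members, and 30.4% in TAC and 0.803% in sham T cell barcodes, so the gap between the libraries was not limited to endothelium. Igtp, an immunity-related GTPase, had 891 CPM in TAC members (29 of 33 barcodes), against 63.0 CPM in sham members (13 of 44). Bst2, the membrane tether tetherin, had 1848 CPM in TAC members (30 of 33 barcodes), against 592 CPM in sham members (40 of 44), 3.12-fold (95% interval 2.61 to 3.74) higher. The lowest ratios were those of the RNA sensors Ddx58, at 1.63-fold (95% interval 0.84 to 3.28), and Ifih1, at 1.67-fold (95% interval 0.768 to 3.82). Reads of the Gbp and Ifit families may be divided between near-identical copies, so single members of these families are uncertain.

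The promoters of the list were searched because the group moved together. The search was for GAAANNGAAA on either strand, the core of the interferon-stimulated response element, in the 300 bases from 250 before to 50 after the start of each gene, from RefSeq on GRCm38.p6. Genes of a single chromosome were left out of the search. The motif was found in 16 of the 22 list genes searched (72.7%), against 1079 of all 27025 genes searched (3.99%) and 3 of 13 of the MHC class I list (23.1%). A match describes the letters and not a bound site. The 4 genes printed had the most UMIs in TAC members among list genes past 2-fold higher in TAC that held a match. That each of them holds a match was therefore fixed by the choice. The 4 sequences are Bst2 on the minus strand at chr8:71537423-71537722, Gbp2 on the plus strand at chr3:142620413-142620712, Gbp7 on the plus strand at chr3:142530086-142530385, and Igtp on the plus strand at chr11:58199306-58199605, each written 5′ to 3′ in the direction of the gene. Capitals mark the match, which in Gbp2 and Gbp7 lies on the other strand and so reads as its reverse complement, and in Bst2 is a run of overlapping matches.
Bst2: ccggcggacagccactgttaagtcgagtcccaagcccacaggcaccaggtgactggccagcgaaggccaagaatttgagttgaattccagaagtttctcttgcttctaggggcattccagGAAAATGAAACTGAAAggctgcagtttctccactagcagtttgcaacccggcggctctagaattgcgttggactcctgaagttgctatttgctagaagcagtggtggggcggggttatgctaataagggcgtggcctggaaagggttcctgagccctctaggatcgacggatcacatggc
Gbp2: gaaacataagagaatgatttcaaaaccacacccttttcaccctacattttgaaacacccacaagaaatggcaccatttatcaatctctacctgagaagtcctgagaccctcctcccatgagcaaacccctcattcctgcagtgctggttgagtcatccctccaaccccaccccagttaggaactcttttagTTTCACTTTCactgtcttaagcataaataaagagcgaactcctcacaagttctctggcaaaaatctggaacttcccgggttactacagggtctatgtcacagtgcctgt
Gbp7: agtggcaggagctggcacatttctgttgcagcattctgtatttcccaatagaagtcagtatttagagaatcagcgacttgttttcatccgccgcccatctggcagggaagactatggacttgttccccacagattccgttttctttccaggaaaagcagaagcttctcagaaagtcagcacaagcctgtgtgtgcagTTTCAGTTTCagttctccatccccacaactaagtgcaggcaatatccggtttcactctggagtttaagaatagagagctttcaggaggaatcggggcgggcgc
Igtp: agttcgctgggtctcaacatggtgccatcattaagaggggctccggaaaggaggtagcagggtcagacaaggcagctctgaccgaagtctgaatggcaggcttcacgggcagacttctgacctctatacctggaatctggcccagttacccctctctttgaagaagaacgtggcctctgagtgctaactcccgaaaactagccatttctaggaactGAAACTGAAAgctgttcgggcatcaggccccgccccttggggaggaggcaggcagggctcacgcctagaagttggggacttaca
The first match begins 130 bases before the start in Bst2, 59 in Gbp2, 53 in Gbp7 and 34 in Igtp. Their TAC over sham log2 ratios in members were 1.64, 3.80, 3.04 and 3.78 in that order.

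**Figure D3:**
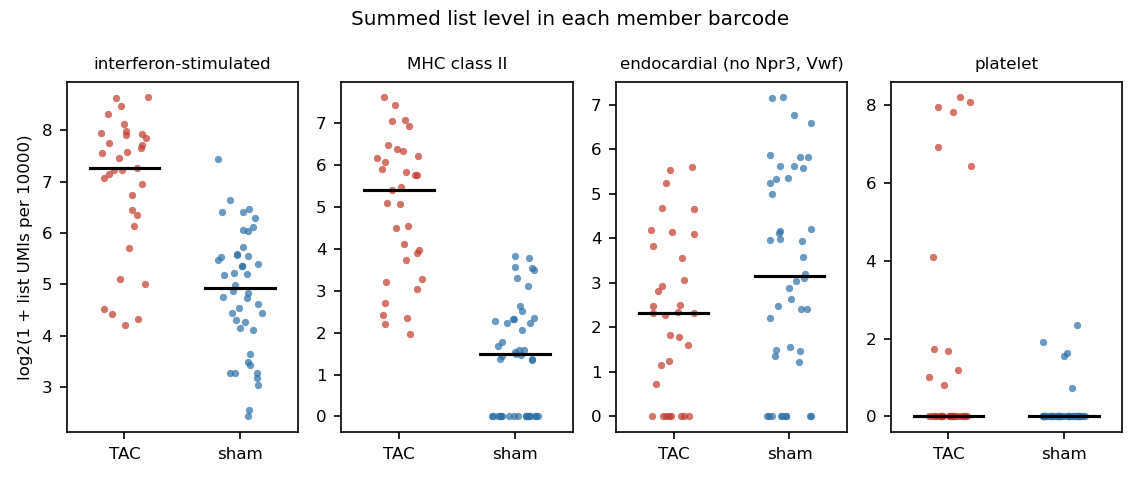
Summed UMIs of 4 gene lists in each member, as log2(1 + UMIs per 10000), for the 33 TAC and 44 sham members, where black lines are medians. Interferon-stimulated and MHC class II sums lie higher in TAC, endocardial sums reach higher in sham, and 7 TAC members stand apart in platelet sums.

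MHC class I genes, which present peptides from inside the cell, and the immunoproteasome that makes those peptides were also higher in TAC members. Of 15 list genes, 14 had at least 20 UMIs and 13 were past 2-fold higher with 0 lower, a median log2 ratio of 1.82, against 14 of 15 and a median of 1.74 in the barcodes with neither gene. B2m, the shared light chain, had 5426 CPM in TAC members (33 of 33 barcodes), against 1122 CPM in sham members (44 of 44). Tap1, the peptide transporter, had 355 CPM in TAC members (26 of 33 barcodes), against 25.9 CPM in sham members (7 of 44). H2-T22, a non-classical class I gene, had 329 CPM in TAC members (24 of 33 barcodes), against 44.4 CPM in sham members (10 of 44). The lowest ratios were those of Tap2, the partner of Tap1, with 252 CPM in TAC members, against 126 CPM in sham members, and of the proteasome subunit Psmb10, at 2.58-fold (95% interval 1.83 to 3.70). The H2-Q and H2-T genes have near-identical copies, and their single values are uncertain. Per barcode, the list summed to 30.6, 187 and 375 UMIs per 10000 in TAC members and 17.4, 51.2 and 147 in sham members, and 25 of 33 TAC members lay above the highest sham member.

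MHC class II genes, which present peptides from outside the cell and are best known from macrophages, dendritic cells and B cells, had a list median of 4.06 in TAC members, with 7 of 7 past 2-fold higher. In the barcodes with neither gene 7 of 7 were past 2-fold higher with a median of 1.98. The larger ratio in members went with low values in sham members. The list summed to 304 CPM in sham members, against 1244 CPM in sham barcodes with neither gene, and 5 of 6 genes were past 2-fold lower, where 10.4% of all genes were. In TAC the sums were 5546 and 4566 CPM, and 0 of 7 genes were past 2-fold either way. Cd74, the class II invariant chain, had 2426 CPM in TAC members (27 of 33 barcodes), against 111 CPM in sham members (18 of 44). H2-DMa, a peptide-loading chaperone, had 191 CPM in TAC members (21 of 33 barcodes), against 7.41 CPM in sham members (2 of 44). The lowest ratios were those of H2-DMb1, at 10.0-fold (95% interval 3.66 to 38.4), and Ciita, the class II transactivator, with 84.0 CPM in TAC members (15 of 33 barcodes), against 7.41 CPM in sham members (2 of 44). H2-Aa was detected after thinning in 42.4% (81.8% before thinning) of TAC members and 9.09% (29.5% before thinning) of sham members. In T cell barcodes, which should lack it, the shares were 62.0% (89.0% before thinning) in TAC and 55.8% (79.5% before thinning) in sham. In fibroblast barcodes they were 14.0% (60.8% before thinning) and 11.4% (32.7% before thinning). Members lay below the T cell level in both libraries, and TAC members lay above the fibroblast level, where sham members did not. The macrophage gene Lyz2 was detected after thinning in 36.4% of TAC members and 11.4% of sham members, against 73.9% of TAC and 83.9% of sham T cell barcodes, and 26.9% of TAC and 24.2% of sham fibroblast barcodes. Lyz2 was thus detected more often in T cell than in fibroblast barcodes, and the part of RNA from other cells in the members' class II counts was not tested.

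Leukocyte adhesion genes and chemokines had 10 of 20 genes past 2-fold higher in TAC members and 0 lower, their median log2 ratio being 1.09, against 0.87 in the barcodes with neither gene. Over all genes counted in members, 10.2% were past 2-fold higher and 8.01% lower. Cxcl9, a chemokine that draws activated T cells, had 817 CPM in TAC members (14 of 33 barcodes), against 29.6 CPM in sham members (3 of 44). It was higher still in the barcodes with neither gene, at 3430.4 CPM in TAC and 158 CPM in sham. Ackr1 had 45 UMIs in 6 TAC members and 1 UMI in sham members, a ratio of 39.3-fold (95% interval 6.69 to 1584). However, 1 TAC barcode held 27 of the 45, and that barcode also held 8 Ptprc and 67 Lyz2 UMIs. Selp was 2.50-fold (95% interval 1.54 to 4.22) higher in TAC members. Vcam1, an adhesion molecule for monocytes and lymphocytes, had 833 CPM in TAC members (24 of 33 barcodes), against 467 CPM in sham members (31 of 44). The lowest ratios were those of Cxcl12, at 1.69-fold lower (95% interval 1.30 to 2.20) in TAC, and of Cx3cl1, the membrane-bound chemokine fractalkine, with 38.8 CPM in TAC members, against 59.2 CPM in sham members.

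Lrg1, a secreted glycoprotein of venular endothelium and neutrophils, belonged to the venous list and had 759 CPM in TAC members (20 of 33 barcodes), against 29.6 CPM in sham members (8 of 44). Where both genes were at 0 it had 111 CPM in TAC and 0.488 CPM in sham. Its log2 ratio in members was 4.59, and 4.09 without mixed barcodes. The venous list as a whole had 3 of 9 genes past 2-fold higher and 0 lower, where 10.2% and 8.01% of all genes counted were. Nr2f2 was its lowest, with 100.1 CPM in TAC members, against 156 CPM in sham members.

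Several signalling genes had lower values in TAC members. Of 16 Notch and BMP genes counted, 0 were past 2-fold higher and 5 were past 2-fold lower, and the median log2 ratio was -0.88, against 1 lower of 18 and -0.62 in the barcodes with neither gene. Over all genes counted, 8.01% in members and 6.06% in the barcodes with neither gene were past 2-fold lower. Bmp6 and Id2, given above, were the lowest, and the highest were the receptors Notch4, with 64.6 CPM in TAC members, against 44.4 CPM in sham members, and Acvrl1, with 194 CPM in TAC members, against 156 CPM in sham members. Smad6, an inhibitor of BMP signalling, had 32.3 CPM in TAC members (9 of 33 barcodes), against 96.3 CPM in sham members (17 of 44), and Hes1, a Notch target, had 93.7 CPM in TAC members (10 of 33 barcodes), against 278 CPM in sham members (17 of 44). Among members with Npr3 at 0 and no platelet UMI the median was -0.25. The flow-responsive transcription factor Klf4 had 559 CPM in TAC members (24 of 33 barcodes), against 1392 CPM in sham members (39 of 44), and Klf2 had 1899 CPM in TAC members (26 of 33 barcodes), against 3362 CPM in sham members (42 of 44). Endothelial barcodes with neither gene had Klf4 at 572 CPM in TAC and 1131 CPM in sham.

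Immediate-early and heat-shock genes, which respond within minutes to stimuli that include tissue dissociation, had 5 of 27 past 2-fold lower in TAC members and 0 higher, with a median log2 ratio of -0.46, against 7 lower and 2 higher of 31 and -0.48 in the barcodes with neither gene. The shares of all genes past 2-fold lower were 8.01% in members and 6.06% in the barcodes with neither gene. Hspa1a and Hspa1b, near-identical genes of the inducible chaperone Hsp70 that may share reads, were the lowest. Hspa1a had 307 CPM in TAC members (14 of 33 barcodes), against 1311 CPM in sham members (35 of 44). Its thinned share was 15.2% (42.4% before thinning) in TAC members and 54.5% (79.5% before thinning) in sham members, and 16.9% and 76.7% in TAC and sham T cell barcodes, so T cell barcodes showed the same gap. The highest ratios were those of Ier3, a regulator of cell survival, with 778 CPM in TAC members, against 444 CPM in sham members, and of the mitochondrial chaperone Hspd1, with 187 CPM in TAC members, against 118 CPM in sham members. Without mixed barcodes the list median was 0.012.

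Capillary genes did not move together between the libraries' members, with 4 past 2-fold higher and 2 lower of 15 in TAC members and a median log2 ratio of 0.13. Where Npr3 and Vwf were at 0, 1 was higher and 4 lower, with a median of -0.49. Over all genes counted, 10.2% were past 2-fold higher and 8.01% lower in members, and 11.6% and 6.06% in the barcodes with neither gene. Ly6c1, a surface protein of endothelium and monocytes, had 4270 CPM in TAC members (30 of 33 barcodes), against 1407 CPM in sham members (28 of 44). Rgcc had 581 CPM in TAC members (14 of 33 barcodes), against 222 CPM in sham members (14 of 44). Aplnr, the apelin receptor, had 12.9 CPM in TAC members (3 of 33 barcodes), against 118 CPM in sham members (9 of 44). Gpihbp1 was 1.78-fold (95% interval 1.44 to 2.22) higher in TAC members, and its log2 ratio was -0.41 among those with Npr3 at 0 and no platelet UMI, so its direction depended on the make-up of the class.

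**Figure D4:**
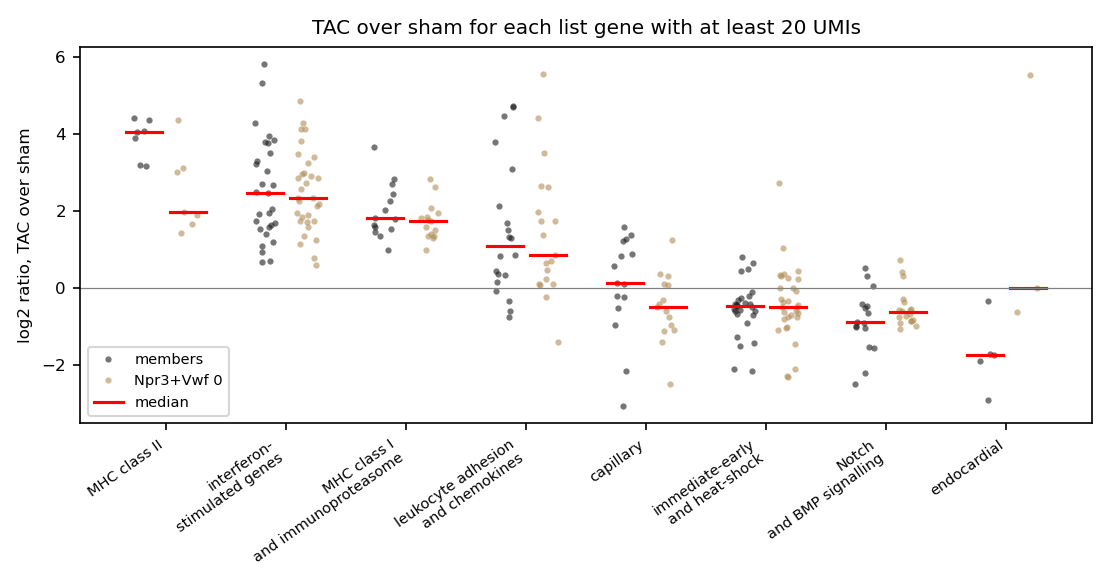
Log2 ratio of TAC over sham for each gene with at least 20 UMIs in 8 lists, in members (dark points) and in endothelial barcodes with Npr3 and Vwf at 0 (light points), with list medians in red. MHC class II, interferon-stimulated and MHC class I genes lie above 0 in both classes, and the endocardial genes outside the rule lie below 0 in members.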

How the data were processed

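The deposited matrices hold raw UMI counts per gene and barcode for 1 TAC and 1 sham library, made by the authors with Cell Ranger 3.0 on mm10, per the submitters' processing notes. The method of barcode calling was not given in the sources used here. Several GEM wells are described, but all barcodes share 1 suffix, so runs could not be separated. Members and gene lists were chosen with earlier results of these data known.

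UMIs were summed over the barcodes of a class and scaled to UMIs per 1000000 (CPM). Ratios carry exact conditional binomial intervals and shares carry exact Clopper-Pearson intervals, all at 95%. Log2 ratios had 0.5 UMI added to each sum. A gene was counted at 20 or more UMIs over the sums compared, and called past 2-fold without a test. A fold against a class at 0 is a bound against a floor of 3 UMIs over the class. List medians leave out the genes of the rule. Named genes were the 10 highest and 10 lowest ratios among genes with at least 50 UMIs, 50 CPM in either group, UMIs in at least 5 barcodes of the higher group and at most 50% of its UMIs in 1 barcode, plus up to 4 extremes of each list. For members over others, the barcode limits were applied to both libraries together, so a gene could exceed them within 1 library. Genes of the rule, predicted and sex-linked genes, and those for haemoglobin, ribosomal proteins, antigen receptors and the mitochondrial genome were not named. Other genes named, and the 4 promoters, were chosen after their values were seen. Thinning drew 1000 UMIs from each barcode. T cell barcodes had at least 2 UMIs of Cd3d, Cd3e and Cd3g and fibroblast barcodes at least 5 of Col1a1, Dcn and Pdgfra, both with at most 1 endothelial UMI. These classes differed from each other in macrophage genes, so neither is a pure measure of free RNA. Mixed barcodes, left out in an alternative chosen after seeing the data, had a platelet or Ptprc UMI, at least 10 Rgs5 UMIs, or at least 10 S100a8 and S100a9 UMIs. The ratios and their intervals were tested on simulated counts with known folds. Values were computed in Python 3.11.15 with pandas 2.3.3, scipy 1.17.1 and numpy 2.4.6 and drawn with matplotlib 3.10.9. Some genes that met these limits are not reported here.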

Additional observations from a re-analysis of the deposited data

Results flagged for a closer look

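In Bgn and Alox12, each with at least 50 UMIs over the members, the ratio of TAC over sham ran one way in members and the other way in the endothelial barcodes with neither gene, each past 2-fold, and the difference was not tested. Bgn, the proteoglycan biglycan, had a log2 ratio of -1.05 in members and 2.80 in the others. Alox12, the platelet-type lipoxygenase, had a log2 ratio of 4.20 in members, where its 73 TAC UMIs lay in 7 barcodes, and -2.22 in the others.

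Outside the class, 148 TAC barcodes (2.22%) and 79 sham barcodes (0.865%) had at least 2 UMIs of Npr3 and Vwf but fewer than 2 of the endothelial genes. Vwf gave the count in 147 of the TAC and 77 of the sham barcodes, and 144 and 73 of them also held at least 2 UMIs of C1qa. Their median depths were 21468.5 and 11376 UMIs. A further 14 TAC barcodes (0.210%) and 7 sham barcodes (0.0766%) met the rule except for C1q. Neither set entered a comparison.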

How the results depend on the processing

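No paired analysis was possible because each group is 1 library. Of the list medians, shares and gene counts recomputed under other settings, 371 values stayed within the interval set for them, 33 moved beyond it and 2 turned. Of single named genes, 951 values stayed, 98 moved and 16 turned. A value was counted as turned only where its main interval left out 0, so other changes of sign are not among those turned. The cause was not tested, except that stricter filters count fewer genes and thinning leaves fewer UMIs. The settings of mixed barcodes left out and members with Npr3 at 0 and no platelet UMI were chosen after seeing the data.

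The 414 genes past 2-fold higher in TAC members became 790 at 1.5-fold, 190 with at least 50 UMIs, 2439 with no filter, 72 after thinning to 1000 UMIs and 269 among members with Npr3 at 0 and no platelet UMI. The 326 past 2-fold lower became 773, 83, 2562, 49 and 133 in the same order, and 187 with mixed barcodes left out. The 217 genes higher in members than in the barcodes with neither gene became 586 at 1.5-fold, 105 with at least 50 UMIs, 1348 with no filter, 77 after thinning and 125 with at most 10% mitochondrial UMIs. The 255 lower became 579, 135, 445, 127 and 152 in the same order, and 169 with 1 UMI added.

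The MHC class II median of TAC over sham in members was 4.57 with at most 10% mitochondrial UMIs and 3.14 after thinning. The Notch and BMP median was -0.25 with Npr3 at 0 and no platelet UMI and -0.21 after thinning, and the endocardial median was -0.077 in the same subset of members. The capillary median of TAC over sham was -0.56 in place of 0.13, and that of members over others in TAC -1.62, with at least 3 UMIs of Npr3 and Vwf. The immediate-early and heat-shock median was -0.20 with Npr3 at 0 and no platelet UMI, -0.22 with at least 3 UMIs of Npr3 and Vwf, -0.28 without the deepest barcode of each class, -0.18 with no platelet UMI and 0.012 with mixed barcodes left out. The pan-endothelial median of members over others in TAC was -0.061 after thinning.

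Among single genes, the log2 ratio of members over others in TAC turned for Bcl2a1b to 0.25 with at least 1 Cdh5 UMI, 0.44 with mixed barcodes left out and 0.50 with no Ptprc UMI. It turned for Cd52 to 0.12 with no Ptprc UMI, and for Ms4a6c to 0.022 with mixed barcodes left out and 0.94 with no Ptprc UMI. In sham, Bcl2a1b, Cytip and Napsa had 0 UMIs in members and 1 or 2 in the others under those settings, so their values show only the 0.5 UMI added and no direction. These were 1.34 for all 3 genes with mixed barcodes left out, and 0.64 for Bcl2a1b and 1.37 for Cytip and Napsa with no Ptprc UMI. The ratio of TAC over sham in members turned for Fermt3 to -1.16 with mixed barcodes left out. Fermt3 had 1 UMI in sham members, so this value shows only the 0.5 UMI added and no direction. The same ratio turned for Mal to 0.60 with Npr3 at 0 and no platelet UMI, and for Pf4 to -0.47 in that subset and -0.38 with no platelet UMI. Pf4 had 6 UMIs in sham members, so its values there rest on few UMIs and give no direction.

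With 33 and 44 barcodes, the rarer genes rest on few UMIs and their counting error is wide. Each library is 1 pool of mice, sequenced to a different depth and with a different mitochondrial share, so neither animal variation nor library effects can be told apart from the operation.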
